A study of Homo sapiens with 12 samples.

Results

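The zinc finger genes of human chromosome 19 were followed in HK2 cells, an immortalised line of human renal proximal tubular epithelial cells. The members were the protein-coding genes on chromosome 19 whose symbol is ZNF plus a number, matched by Ensembl identifier to the GENCODE release 29 annotation of GRCh38. This rule gave 240 genes of the 62703 identifiers in the table. Symbols with a further letter, such as those of readthrough genes, were left out by the rule. RNA was sequenced from 4 groups of 3 libraries each, to ask which genes respond to high glucose and to FGF9, a fibroblast growth factor. NG cells were kept in 5.5 mM glucose and received a control vector. HG cells were kept in 50 mM glucose, si-FGF9 cells were transfected in 5.5 mM glucose with a small interfering RNA against FGF9, and HG+OE-FGF9 cells were kept in 50 mM glucose and received a vector for FGF9, given as lentivirus in the methods and as adenovirus in the study's results. The sources describe no non-targeting siRNA for the si-FGF9 group and no control vector for the HG group, and the results section of the study gives the NG medium as one with mannitol. Nothing in the labels says whether the 3 libraries of a group came from separate cultures, so that the p-values measure the spread between these libraries, which may be technical.

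C2H2 zinc finger proteins read DNA through tandem fingers, each folded around a zinc ion held by a pair of cysteines and a pair of histidines. Many of those encoded on chromosome 19 also carry a KRAB box, which recruits the corepressor TRIM28 (KAP1), and through it the histone methyltransferase SETDB1 and HP1 proteins, so that the bound DNA is packed into heterochromatin marked by H3K9 methylation. The genes arose by repeated tandem duplication and stand in clusters, and many of the proteins silence retrotransposons.

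The repeated finger is visible in the coding sequences of the members themselves. The 6 stretches below come from members picked by hand with their changes known, 3 that were lower in HG and si-FGF9 and 3 that were not. Members picked this way do not show how base composition goes with the change. For each, the GENCODE transcript with the longest open reading frame was used. Each runs over 1 finger and the linker to the next, and the capitals mark the codons of the 2 cysteines and 2 histidines that hold the zinc. All lie in coding exons, of ZNF91 (minus strand, chr19:23304991-23395560), ZNF146 (plus strand, chr19:36214602-36238774), ZNF823 (minus strand, chr19:11721265-11739009), ZNF581 (plus strand, chr19:55635459-55645622), ZNF787 (minus strand, chr19:56087366-56121280) and ZNF579 (minus strand, chr19:55576770-55580845) on GRCh38.
ZNF91: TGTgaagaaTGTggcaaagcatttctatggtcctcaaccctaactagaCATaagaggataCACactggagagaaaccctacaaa
ZNF146: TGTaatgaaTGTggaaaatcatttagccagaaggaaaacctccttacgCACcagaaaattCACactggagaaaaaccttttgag
ZNF823: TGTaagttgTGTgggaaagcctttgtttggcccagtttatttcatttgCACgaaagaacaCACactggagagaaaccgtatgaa
ZNF581: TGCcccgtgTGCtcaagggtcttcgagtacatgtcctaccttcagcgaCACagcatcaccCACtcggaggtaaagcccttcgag
ZNF787: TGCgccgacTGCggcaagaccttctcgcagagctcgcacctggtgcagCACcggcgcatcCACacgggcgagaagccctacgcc
ZNF579: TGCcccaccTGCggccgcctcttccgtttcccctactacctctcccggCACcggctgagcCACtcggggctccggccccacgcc
The spacing of the 4 marked codons is the same in all 6 because the search for these stretches required it. The letters between them differ in composition. GC makes up 41.7% of the 84 bases in ZNF91, 38.1% in ZNF146 and 41.7% in ZNF823, against 57.1% in ZNF581, 69.05% in ZNF787 and 73.8% in ZNF579.

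Promoters were compared in the same way, since neighbours in a cluster share their origin. RefSeq promoter entries on GRCh38.p14, which run from 250 bases before to 50 bases after the annotated start, were matched by symbol for 209 of the 240 members, with all the entries listed for them. The 10 letters TCCAATCAGG, which hold the shorter CCAAT box, were found on either strand in 43 of these entries (16.8%), in 5.49% of the entries of ZNF genes of other chromosomes and in 0.347% of all 35116 entries of that table. The motif was taken as the 10 letters held by the most entries of the cluster of members around ZNF91, so that its share there was fixed by the choice. That cluster holds 26 of the 43 entries with the motif, so that the 16.8% is raised by the choice as well. The 3 stretches below are the 120 bases before the RefSeq start of members described further on, with the motif in capitals, for ZNF91 (chr19:23395472-23395591), ZNF724 (chr19:23250395-23250514) and ZNF823 (chr19:11738947-11739066), all on the minus strand.
ZNF91: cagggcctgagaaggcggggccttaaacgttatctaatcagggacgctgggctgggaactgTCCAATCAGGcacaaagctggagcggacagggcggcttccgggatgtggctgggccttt
ZNF724: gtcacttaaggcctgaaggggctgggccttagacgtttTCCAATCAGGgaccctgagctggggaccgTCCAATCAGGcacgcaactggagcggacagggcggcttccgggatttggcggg
ZNF823: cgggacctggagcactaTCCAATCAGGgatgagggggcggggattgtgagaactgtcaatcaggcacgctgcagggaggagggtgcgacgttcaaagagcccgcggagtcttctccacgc
ZNF91 and ZNF823 carry the motif 1 time in this window and ZNF724 2 times. Along the chromosome the motif was found in 26 of 30 entries (86.7%) of the cluster that holds ZNF91 and ZNF724, in 14 of 26 (53.8%) of the cluster that holds ZNF823 and in 3 of 6 of the most distal cluster of the short arm, and in none of the entries of the other clusters. A match is a description of these letters and does not show a bound factor.

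Values were deposited as TPM, which are scaled for transcript length and to the same sum in each library, and which keep no record of depth. The number of genes at 1 TPM or more ran from 13795 to 13949 in the NG libraries, from 12350 to 13111 for HG, from 11549 to 12013 for si-FGF9 and from 13008 to 13236 for HG+OE-FGF9. Mitochondrially encoded RNA made up 13.5% to 14.4% of the NG libraries, 11.3% to 15.6% of HG, 4.94% to 8.6% of si-FGF9 and 13.1% to 14.7% of HG+OE-FGF9. The libraries also differed in a trend with GC content. Across the 14191 tested genes with a known GC content, the rank correlation between GC content and a gene's deviation from its mean over the 12 libraries was -0.65 to -0.55 for NG, -0.42 to 0.57 for HG, 0.23 to 0.55 for si-FGF9 and 0.27 to 0.44 for HG+OE-FGF9. FGF9 was listed at 0 TPM in all 9 libraries of NG, HG and si-FGF9 and stood at 3.34, 4.03 and 3.82 TPM in HG+OE-FGF9, so that its knockdown could not be checked. Of 6 epithelial markers, 5 were at 1 TPM or more in all 12 libraries and CDH1 was under 1 TPM in all. Among the proximal tubule markers, GGT1 and PAX8 were at 1 TPM or more in all 12, while ANPEP, LRP2, CUBN and SLC34A1 were under 1 TPM in all. The summed level of 3 endothelial markers did not exceed 0.15 TPM. That of 3 fibroblast markers was 5.12 to 12.1 TPM in NG and 2.09 to 3.42 TPM in the other groups, and that of 3 immune markers, nearly all of it CD68, was 110.3 to 163 TPM. PTPRC, the defining leukocyte marker, reached at most 0.07 TPM. UMOD, a marker of the distal tubule, was listed at 0 in all 12 libraries, and NPHS1, a podocyte marker, was under 1 TPM in all. The part of depth, RNA quality or these markers in the results below was not tested, and in bulk RNA fewer cells and less RNA per cell cannot be told apart.

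The 240 members divide by structure and by base composition. A KRAB box was found in the first 250 residues of the translated protein of 201 members and was not found in 39. The median protein held 12 C2H2 fingers, counted as C, 2 or 4 residues, C, 12 residues, H, 3 to 5 residues and H, with a range from 0 to 36, and 206 of the 240 carried the linker that joins tandem fingers in this family at least 1 time. ZNF738, the member with 0 matches, was annotated with a KRAB box and no finger of this pattern. GC content of the longest transcript had a median of 41.8% in members with a KRAB box and of 57.8% in those without, and was 50% or more in 9 of the former and 24 of the latter. Because neighbours are near copies, reads may be shared between them: 148 members had no 100-base window that recurs in a transcript of another gene, while in 30 more than 10% of windows did. Spans of 43 members also overlap that of another member, in 23 pairs, of which 14 lie on opposite strands. These spans include introns, and the overlap of exons was not measured. No source states whether counting used strand, so that reads from exon bases shared within a pair may not be told apart.

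Most members were expressed at a low level, and they were highest in NG. The median over all 240 members was 3.6, 3.39 and 3.2 TPM in the 3 NG libraries, 1.59, 0.96 and 1.38 for HG, 0.55, 0.6 and 0.64 for si-FGF9 and 1.13, 1.26 and 1.54 for HG+OE-FGF9. A level of 1 TPM or more in all 3 libraries was reached by 191 members for NG, 109 for HG, 79 for si-FGF9 and 111 for HG+OE-FGF9, and 71 members reached it in all 12. The summed level of the 201 members with a KRAB box was 978 ± 76.2 TPM (SD, n = 3) for NG, 442 ± 70.9 for HG, 328 ± 22.8 for si-FGF9 and 519 ± 20.7 for HG+OE-FGF9, and the NG libraries did not overlap those of any other group. The summed level of the 39 members without a KRAB box was 351 ± 4.06 TPM for NG, 328 ± 28.9 for HG, 329 ± 35.9 for si-FGF9 and 337 ± 5.92 for HG+OE-FGF9. Here the HG and si-FGF9 libraries overlapped NG, and the HG+OE-FGF9 libraries lay under the lowest of NG. When the members were divided by GC content instead, those under 50% summed to 1089 ± 86.4 TPM in NG and 452 ± 98.1 in HG, and those of 50% or more to 240.2 ± 12.5 and 318 ± 59.0. Neither of these sums overlapped between NG and HG, and they moved in opposite directions.

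**Figure D1:**
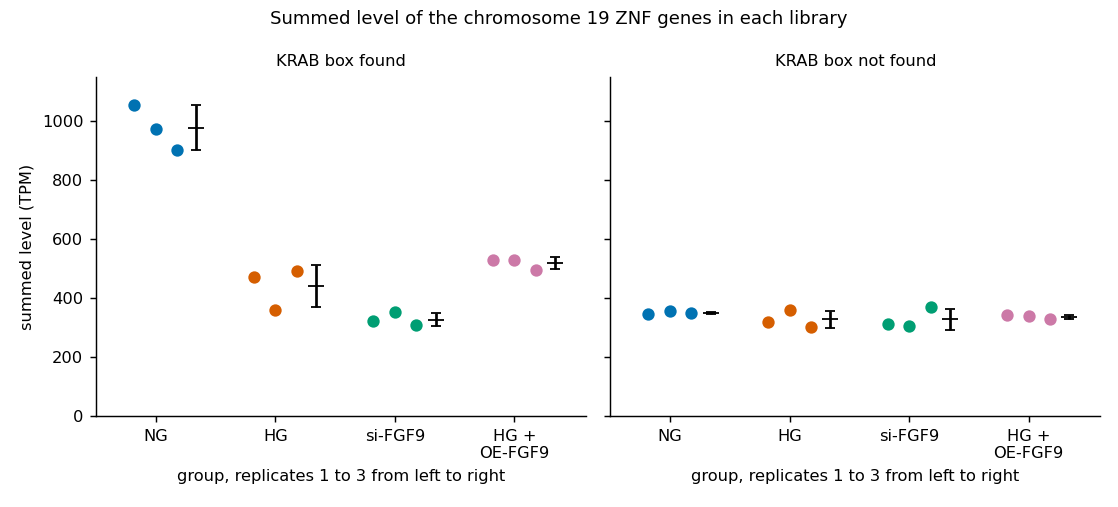
Summed TPM of the chromosome 19 ZNF genes in each of the 12 libraries (points) with the mean and SD of each group (black), for the 201 members with a KRAB box and the 39 without. The NG libraries lie between 903 and 1055 TPM in the left panel and all other libraries between 309 and 531, while in the right panel the 12 libraries lie between 304 and 370.5.

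The members with the highest mean level were mostly not the typical ones. ZNF581, a short protein with 4 fingers and no KRAB box, had the highest mean over the 12 libraries, 49.5 TPM, followed by ZNF428, with 1 finger, at 45.0 TPM, ZNF787 at 28.5 TPM and ZNF146, a protein built almost entirely of fingers, at 27.6 TPM. In NG the highest member was ZNF146, in every library. In HG it was ZNF428 in 2 libraries and ZNF581 in 1, in si-FGF9 it was ZNF581 in all 3 and in HG+OE-FGF9 ZNF428 in all 3.

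Of the 240 members, 199 reached 1 TPM in 3 or more libraries and were tested with all other genes. The remaining 41 reached at most 2.13 TPM, and 2 of them were listed at 0 in all 12 libraries. The test was limma on log2(TPM + 1), a scale that understates the change of low genes, and a call needed a log2 difference of 1 or more, up or down, with p under 0.01 before adjustment. Adjusted p-values are Benjamini-Hochberg values over all 14639 genes tested. A member that passed the filter through its NG libraries alone had to be lower elsewhere, and the counts below are read with that in mind and beside those of all genes. Without NG replicate 1, 2 or 3 the filter was passed by 180, 180 and 179 members. Without any 1 library of another group it was passed by 198 or 199.

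High glucose was set against normal glucose first. ZNF561, ZNF823, ZNF146, ZNF91 and ZNF841 had the largest falls in HG, each by about 2 on the log2 scale, and ZNF428 was the only member called higher. In all, 88 of the 199 members (44.2%) were called lower and 1 (0.503%) higher, beside 22.7% of all 14639 genes called lower and 1.65% higher. The median log2 fold change was -0.95 over the members and -0.39 over all genes. Among the 71 members that reached 1 TPM in all 12 libraries, tested under that filter, 31.0% were lower beside 22.0% of all genes. Their median was -0.61, beside -0.34 over all genes. After scaling the libraries by the median of ratios, which brings the median of all genes to 0.01, the median over the members was -0.55, with 29 called lower and 6 higher, beside 8.27% and 7.43% of all genes.

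ZNF146 stood at 76.1, 76.2 and 69.5 TPM in NG and at 19.1, 9.87 and 27.5 in HG, a log2 fold change of -2.02 (SE 0.35, adjusted p = 0.00142). ZNF823, a KRAB protein with 15 fingers, stood at 20.01, 16 and 14.99 TPM in NG and 3.43, 1.57 and 5.92 in HG (-2.06, SE 0.37, adjusted p = 0.00154). For ZNF561, also a KRAB protein, the values were 12.8, 9.93 and 11.6 TPM and 2.53, 1.63 and 2.18 (-2.0, SE 0.18, adjusted p = 8.75e-05). In all of these the lowest NG library lay above the highest HG library, and HG replicate 2 was the lowest HG library. ZNF841, with 20 fingers, went from 11.9, 13.5 and 12.4 TPM in NG to 2.3, 1.2 and 4.57 in HG (-1.99, SE 0.29, adjusted p = 0.000779). ZNF91, a KRAB protein of 31 fingers known to silence SVA retrotransposons, stood at 15.8, 14.4 and 10.7 TPM in NG and at 1.86, 0.92 and 7.63 in HG (-2.0, SE 0.46, adjusted p = 0.00429). In ZNF91 as in ZNF841, ZNF146 and ZNF823 the HG library nearest to NG was replicate 3, which was also the HG library with a negative trend with GC content (-0.42, against 0.12 and 0.57 in replicates 1 and 2). Without HG replicate 3 the log2 fold change of ZNF91 was -2.62, and without HG replicate 2 it was -1.54. ZNF841 overlaps ZNF432 on the same strand, and ZNF146 overlaps ZNF565 on the opposite strand.

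In the other direction, ZNF428 stood at 19.8, 21.1 and 22.6 TPM in NG and at 50.6, 63.6 and 37.04 in HG (1.18, SE 0.20, adjusted p = 0.00123), and every HG library lay above every NG library. Its call was lost without HG replicate 2, at a log2 fold change of 1.0, and after a correction for GC content, at 0.99. ZNF580 (7.56, 9.33 and 11.4 TPM in NG, 17.7, 22.2 and 17.4 in HG), ZNF787 (12.97, 16.8 and 20.6 and 29.2, 34.5 and 27.03) and ZNF579 (14.5, 15.4 and 16.4 and 23.3, 28.6 and 25.9) also did not overlap between the groups, at log2 fold changes of 0.95, 0.83 and 0.71 under the threshold of 1. GC content is 61.3% in ZNF428, 61.7% in ZNF580, 70.3% in ZNF787 and 65.9% in ZNF579. ZNF581 did not differ beyond the spread of its libraries, at 43.2, 43.6 and 44.1 TPM in NG and 42.7, 54.9 and 39.97 in HG (0.06, SE 0.14, adjusted p = 0.774). ZNF317 and ZNF544, KRAB proteins among the 10 highest members, were as level, with log2 fold changes of -0.07 (SE 0.14) and -0.02 (SE 0.15).

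The si-FGF9 libraries were set against the same NG libraries, so that these results and those of HG share their controls. More members were lower here, ZNF146, ZNF823, ZNF561, ZNF738 and ZNF776 by the largest amounts, and ZNF428, ZNF579 and ZNF580 were higher. The counts were 134 of 199 members (67.3%) lower and 3 (1.51%) higher, beside 42.2% and 5.36% of all genes, and the medians were -1.32 over the members and -0.79 over all genes. Under the median-of-ratios scaling 68 members were lower and 16 higher, beside 17.5% and 19.2% of all genes, and the median over the members was -0.73. Among the 71 members that reached 1 TPM in all 12 libraries, tested under that filter, 42.3% were lower beside 41.6% of all genes, and their median of -0.65 lay above the -0.74 of all genes.

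ZNF146 stood at 9.23, 8.78 and 5.83 TPM in si-FGF9, a log2 fold change of -3.09 (SE 0.35, adjusted p = 1.84e-05) against NG. ZNF823 stood at 1.08, 2.57 and 1.38 TPM (-2.78, SE 0.37, adjusted p = 4.25e-05) and ZNF561 at 1.03, 0.95 and 1.02 TPM (-2.63, SE 0.18, adjusted p = 2.90e-06). The ZNF738 values were 9.99, 10.8 and 10.4 TPM in NG and 0.66, 1.06 and 0.92 in si-FGF9 (-2.61, SE 0.30, adjusted p = 2.04e-05). In each of these the si-FGF9 libraries lay far under NG and close to each other. ZNF776 fell from 8.01, 5.31 and 5.24 TPM in NG to 0.09, 0.17 and 0.24 in si-FGF9 (-2.60, SE 0.27, adjusted p = 1.08e-05), with no overlap. Going up, ZNF580 stood at 32.9, 27.3 and 38.5 TPM (1.70, SE 0.18, adjusted p = 1.36e-05), ZNF428 at 42.8, 45.2 and 56.1 TPM (1.14, SE 0.20, adjusted p = 0.000261) and ZNF579 at 34.3, 31.4 and 37.7 TPM (1.11, SE 0.14, adjusted p = 2.67e-05), all above every NG library. ZNF580 and ZNF581 overlap on the same strand, so that their reads may be shared. ZNF581 itself stood at 59.6, 57.3 and 71.3 TPM in si-FGF9, with a log2 fold change of 0.51 (SE 0.14, adjusted p = 0.00745) under the threshold. ZNF317 also lay above NG in all 3 libraries, at 35.8, 35.9 and 40.1 TPM against 23.2, 19.6 and 19.9 (0.81, SE 0.14, adjusted p = 0.000239).

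**Figure D2:**
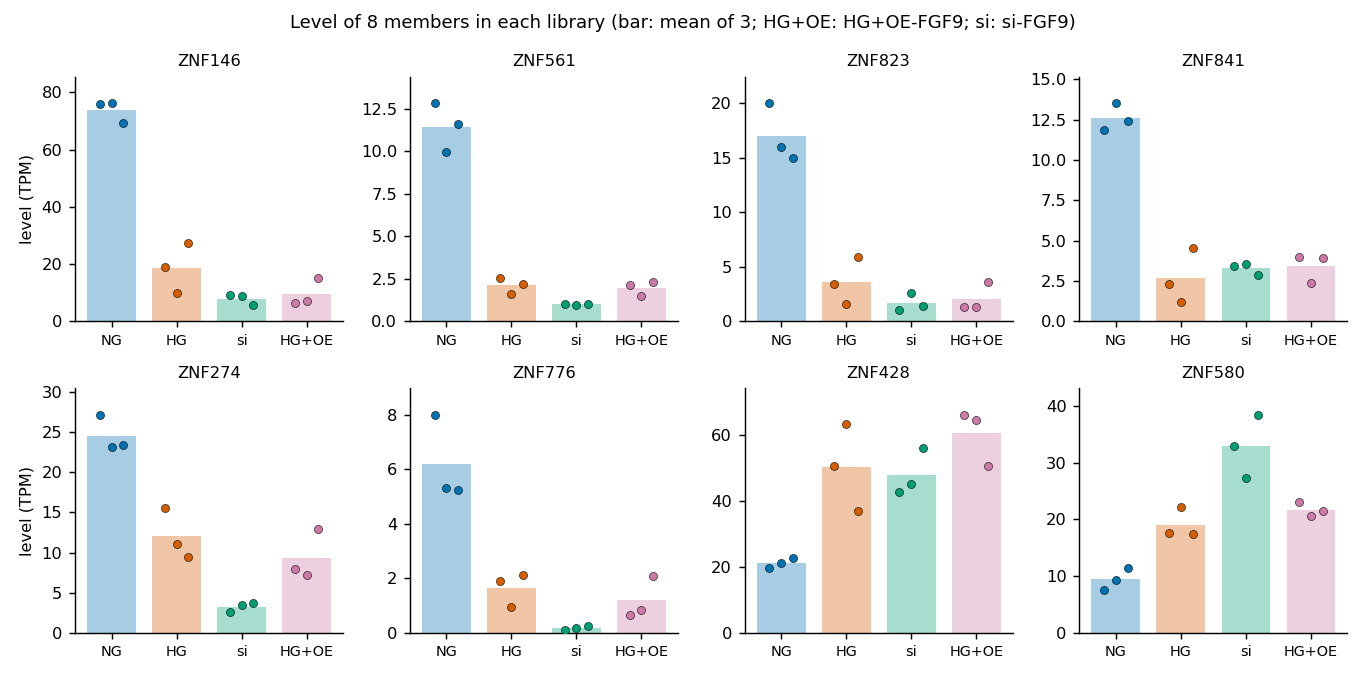
TPM of 8 members in each library (points) with the mean of each group (bars); each panel has its own axis, which starts at 0. The first 6 members have their highest values in NG, and ZNF428 and ZNF580 their lowest, between 19.8 and 22.6 TPM and between 7.56 and 11.4 TPM.

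Genes of similar GC content and level were also lower. Other genes were taken when both values lay within the middle range of the members, from 39.7% to 45.7% GC and from 1.08 to 2.28 in mean log2(TPM + 1), which gave 963 genes, and 47 members lay in that range too. In HG versus NG the median log2 fold change was -1.06 over the 47 members, with 29 (61.7%) called lower, and -0.91 over the 963 other genes, with 396 (41.1%). In si-FGF9 versus NG it was -1.66 over the 47 members, with 34 (72.3%) called lower, and -1.42 over the other genes, with 660 (68.5%). With the GC correction the medians were -0.35 and -0.34 over the 47 members and -0.08 and -0.12 over the other genes. No test was made between these groups of genes. ZNF genes of other chromosomes, 184 of which were tested and whose median GC content was 45.5%, had medians of -0.66 and -1.10, with 52 and 103 called lower. The other protein-coding genes of chromosome 19, 742 of which were tested, are richer in GC, with a median of 60.2%, and had medians of 0.18 and 0.06, with 18 and 83 called lower and 33 and 118 called higher.

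Within the members, those poor in GC were lower whether or not a KRAB box was found. The shares of all genes called lower were 22.7% in HG and 42.2% in si-FGF9, and those called higher 1.65% and 5.36%. Of the 162 tested members with a KRAB box and less than 50% GC, 80 (49.4%) were called lower in HG. In si-FGF9 124 (76.5%) of them were, and their medians were -1.0 and -1.41. After the GC correction described below, 4 and 12 of them were lower and 3 and 11 higher. The 12 members with less than 50% GC and no KRAB box, ZNF146 and ZNF83 among them, had medians of -1.14 and -1.41. Of these 12, 8 (66.7%) and 7 (58.3%) were called lower. The 18 members with 50% GC or more and no KRAB box had medians of 0.39 and 0.31, none called lower and 1 and 3 called higher; the latter median turned to -0.03 with the GC correction described below and was 1.03 with the median-of-ratios scaling. The 7 members with a KRAB box and 50% GC or more lay between, with medians of -0.08 and -0.92. The median of -0.08 turned to 0.23 and 0.37 under those scalings. Of these 7, 0 and 3 were called lower, and the 3 (42.9%) are near the 42.2% of all genes. Across the 199 members the rank correlation of the log2 fold change with GC content was 0.39 in HG versus NG and 0.29 in si-FGF9 versus NG, and across all 14191 genes 0.64 and 0.57. The correlation with the number of fingers was -0.15 and -0.11, and with transcript length -0.18 and -0.12. These are across genes measured in the same libraries, which are not independent replicates.

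**Figure D3:**
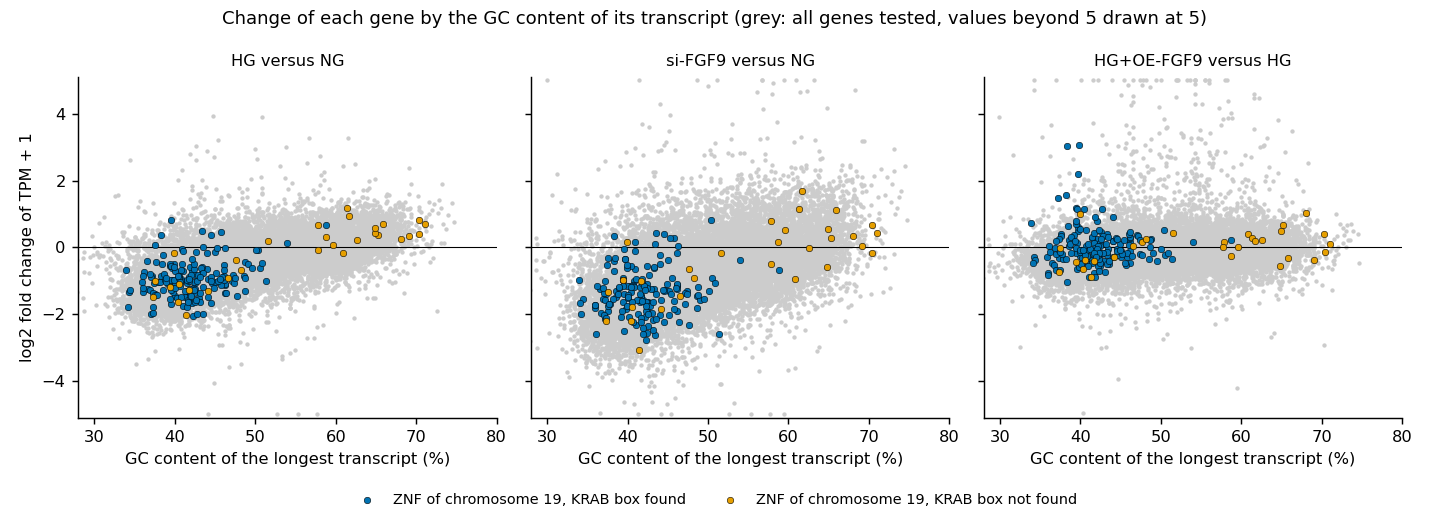
Log2 fold change of TPM + 1 against the GC content of the longest transcript for all genes tested (grey) and for the tested members with a KRAB box (blue) and without (orange), in each comparison. Members with a KRAB box gather near 42% GC, where the grey genes lie below 0 in the first 2 panels, and members without one spread up to 71.1%; in the third panel ZNF347, ZNF583 and ZNF724 stand apart above the rest.

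A correction for GC content was then fitted over all genes in each library, and most calls among the members were no longer made. In HG versus NG 5 members were lower and 3 higher, beside 3.06% and 3.78% of all genes. The median was -0.12 over the members and -0.02 over all genes. In si-FGF9 versus NG 14 were lower and 15 higher, beside 12% and 12.3% of all genes. Here the median was -0.10 over the members and -0.07 over all genes. The correction also removes any shift that a library's genes of like GC content share. The members lower in HG both before and after it, and also under the median-of-ratios and quantile scalings, were 4 (2.01% of the tested members, beside 1.95% of all genes with a known GC content), namely ZNF146 (-1.08 after the correction), ZNF561 (-1.24), ZNF823 (-1.19) and ZNF841 (-1.16). In si-FGF9 14 members (7.04%) were lower under all 4, beside 7.58% of those genes, so that in both comparisons the members' share lay near that of all genes. They included ZNF274 (-2.02 after the correction), ZNF146 (-1.63), ZNF823 (-1.42), ZNF561 (-1.41) and ZNF776 (-1.21). ZNF428 (1.08) and ZNF580 (1.62) were higher under all 4, 1.01% of the members beside 4.47% of those genes. The other 9 that were lower under all 4, named after their values were seen, were ZNF44, ZNF45, ZNF211, ZNF256, ZNF415, ZNF550, ZNF627, ZNF667 and ZNF805.

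Members with a known role were read 1 by 1. ZNF274, which is known to bring SETDB1 to the 3′ ends of zinc finger genes, stood at 27.2, 23.1 and 23.4 TPM for NG, 15.6, 11.02 and 9.41 for HG and 2.63, 3.43 and 3.68 for si-FGF9. Its log2 fold change was -1.0 (SE 0.23, adjusted p = 0.00492) in HG, just short of the threshold, and -2.59 (SE 0.23, adjusted p = 7.47e-06) in si-FGF9. With a GC content of 51.4% it lies apart from the AT-rich members. ZNF93, which silences a class of L1 elements, stood at 9.1, 7.14 and 8.2 TPM for NG, 3.45, 2.31 and 6.08 for HG and 1.62, 4.55 and 3.71 for si-FGF9, and was called lower for si-FGF9 alone, at -1.16 (SE 0.33, adjusted p = 0.00801), a call lost without NG replicate 1, NG replicate 3 or si-FGF9 replicate 1 and turned to 0.40 by the GC correction. ZNF91 was lower in si-FGF9 as well, at 2.71, 2.9 and 2.1 TPM (-2.02, SE 0.46, adjusted p = 0.00169), and at -0.37 after the GC correction it was no longer called.

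ZNF224, a repressor first described at the aldolase A gene, stood at 8.75, 7.3 and 6.79 TPM for NG, 2.31, 1.44 and 2.26 for HG and 1.1, 1.08 and 0.91 for si-FGF9, with log2 fold changes of -1.53 (SE 0.20, adjusted p = 0.000602) and -2.08 (SE 0.20, adjusted p = 8.28e-06). ZNF382, a KRAB repressor silenced by methylation in several cancers, stood at 4.61, 5.06 and 3.34 TPM for NG, 1, 0.65 and 0.65 for HG and 0.4, 0.26 and 0.05 for si-FGF9 (-1.59, SE 0.18, adjusted p = 0.000435 and -2.11, SE 0.18, adjusted p = 6.81e-06). Both had no overlap with NG in either comparison, and after the GC correction the values were -0.50 and -0.52 for ZNF224 and -0.66 and -0.67 for ZNF382. ZNF420, also known as APAK, a modulator of p53, stood at 4.46, 3.95 and 2.67 TPM for NG, 1.27, 0.53 and 1.02 for HG and 0.54, 0.47 and 1.83 for si-FGF9 (-1.27, SE 0.28, adjusted p = 0.00365 and -1.32, SE 0.28, adjusted p = 0.00115). The change of ZNF420 in si-FGF9 turned to 0.32 with the GC correction. ZNF568, which in the mouse represses a placental Igf2 transcript, fell in si-FGF9, from 3.22, 2.64 and 2.28 TPM to 0.39, 1.03 and 0.42 (-1.22, SE 0.20, adjusted p = 0.000169), and turned to 0.44 with the GC correction. ZNF331, an imprinted gene, fell in si-FGF9 from 12.5, 11.8 and 8.68 TPM to 5.44, 5.29 and 3.05 (-1.11, SE 0.30, adjusted p = 0.00597). This call was lost without NG replicate 1, NG replicate 2 or si-FGF9 replicate 3, and also after the GC correction.

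Among the highest KRAB-type genes, ZNF226 stood at 49.1, 45.4 and 37.5 TPM for NG, 21.4, 15.8 and 28.6 for HG and 18.2, 24.8 and 16.8 for si-FGF9. Its log2 fold change was -1.11 (SE 0.23, adjusted p = 0.000996) in si-FGF9 and 0.40 after the GC correction, the opposite direction. ZNF83, with 14 fingers and no KRAB box found, stood at 46.6, 41.6 and 33.1 TPM for NG, 11.6, 11.4 and 29.4 for HG and 19.5, 23.2 and 16.7 for si-FGF9. It was called lower in HG (-1.29, SE 0.30, adjusted p = 0.0051), a call lost after the GC correction. In si-FGF9 ZNF83 fell just short of the threshold (-0.99, SE 0.30, adjusted p = 0.0114). ZNF444, a SCAN domain protein with a GC content of 57.8%, stood at 9.43, 10.8 and 10.4 TPM for NG, 17.8, 21.6 and 12.1 for HG and 18.5, 16.2 and 21.3 for si-FGF9. It lay above NG in every one of these 6 libraries, at log2 fold changes of 0.66 (SE 0.20, adjusted p = 0.015) and 0.80 (SE 0.20, adjusted p = 0.00278) under the threshold.

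Along the chromosome, the lower members were spread over all clusters, taking a gap of more than 1 Mb between neighbouring starts as the border. There were 9 clusters of 5 members or more, from 5 members (ZNF554 to ZNF77, chr19:2819874-2944971) to 57 (ZNF628 to ZNF446, chr19:55476332-58481230). The cluster between ZNF101 and ZNF254 (chr19:19668796-24129961) holds ZNF91 and ZNF93, and its 28 tested members have a median GC content of 37.4%. All 28 had a negative log2 fold change in both comparisons. Of them 16 (57.1%) were called lower in HG and 21 (75%) in si-FGF9, beside 22.7% and 42.2% of all genes. The medians of this cluster, -1.06 and -1.49, turned to 0.05 and 0.13 with the GC correction. The cluster between ZNF653 and ZNF791 (chr19:11483427-12640098), which holds ZNF823, had the lowest medians, -1.30 in HG and -1.90 in si-FGF9. There 14 of 19 (73.7%) were called lower in each, and the medians were -0.39 and -0.51 with the GC correction. In the cluster between ZNF628 and ZNF446 11 of 51 tested members (21.6%) were called lower in HG, near the 22.7% of all genes. In si-FGF9 30 (58.8%) were, beside 42.2% of all genes, and the medians were -0.68 and -1.26. That cluster holds ZNF579, ZNF580, ZNF581, ZNF787 and ZNF444 near its proximal end. The other clusters had medians from -1.07 to -0.75 in HG and from -1.55 to -1.16 in si-FGF9.

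**Figure D4:**
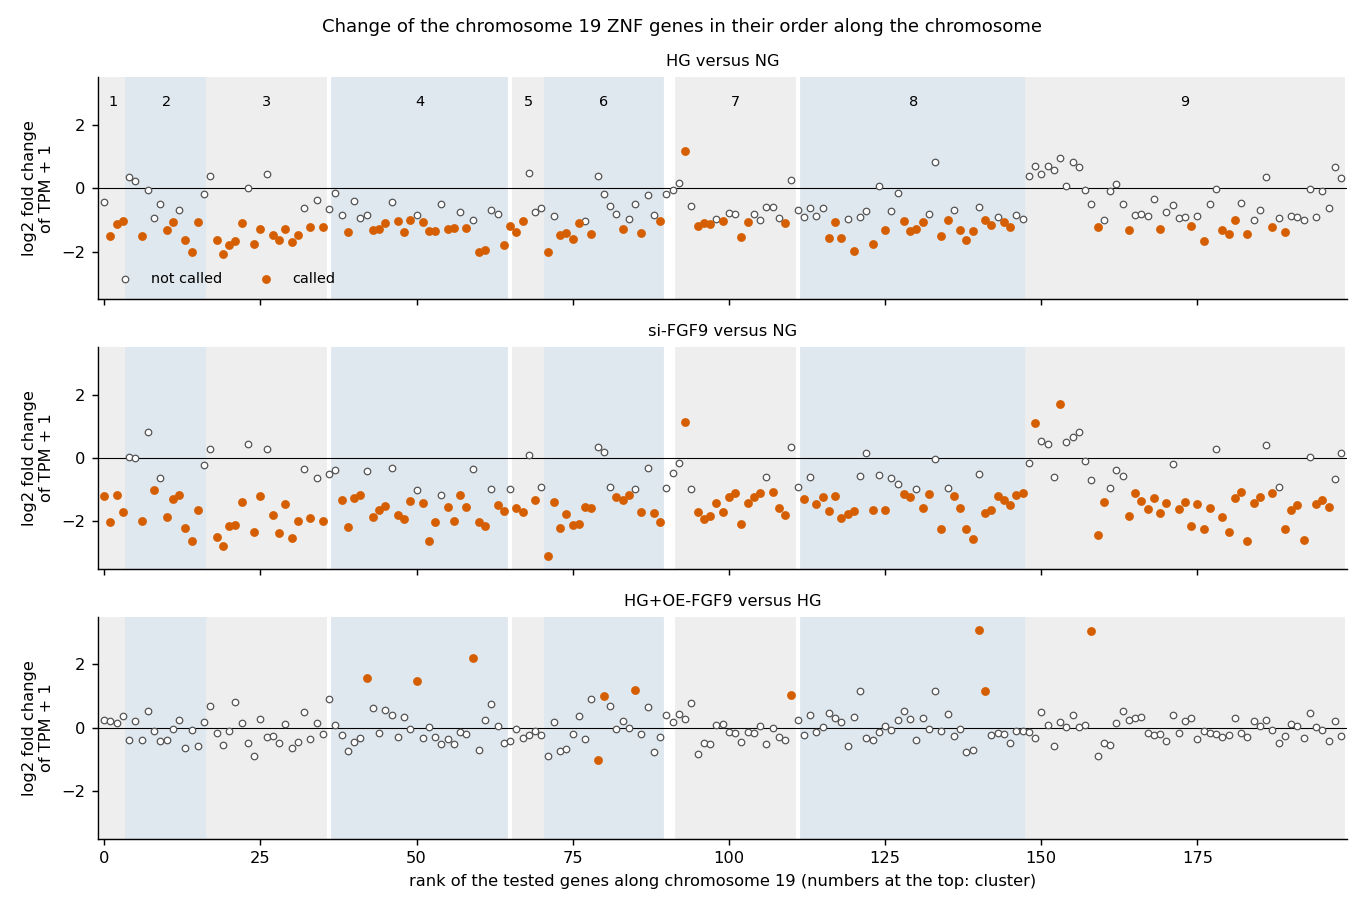
Log2 fold change of TPM + 1 of the 199 tested members by rank along chromosome 19, in each comparison; shading marks the 9 clusters, numbered at the top, and orange points are called. Called members occur in every cluster in the first 2 panels, 88 lower and 1 higher in HG and 134 lower and 3 higher in si-FGF9, and the first members of cluster 9 lie near or above 0; in the third panel 9 orange points lie above 0 and 1 below.

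The promoter motif was set beside these changes. The 36 tested members with TCCAATCAGG in a promoter entry had medians of -1.10 in HG and -1.54 in si-FGF9, with 23 and 26 called lower, and the 142 tested members with an entry but without the motif had medians of -0.91 and -1.27, with 59 and 93. Of all genes tested, 22.7% were called lower in HG and 42.2% in si-FGF9. The motif was chosen on a cluster poor in GC, and no test was made between members with and without it. The members with the motif had a median GC content of 39.7% and the others 42.5%. After the GC correction the medians were -0.14 and 0.00 with the motif and -0.11 and -0.13 without it.

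FGF9 overexpression in high glucose was then set against high glucose alone, so that the HG libraries serve here as the control and in the first comparison as the treated group. Most members lay near their HG level, and a few rose by large amounts, ZNF347 and ZNF583 by about 3 on the log2 scale. Of the 199 members 9 (4.52%) were called higher and 1 (0.503%) lower, beside 2.94% and 2.67% of all genes, and the median was -0.09 over the members and -0.13 over all genes. The sign of the members' median depended on the scaling: it was 0.03 with the median-of-ratios scaling, with 12 higher and none lower beside 3.64% and 1.78% of all genes, and 0.12 with the GC correction, with 13 higher and none lower beside 3.03% and 2.18%.

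ZNF347, a KRAB protein with 17 fingers, stood at 2.33, 2.03 and 1.54 TPM in HG and at 38.96, 42.6 and 7.87 in HG+OE-FGF9 (3.08, SE 0.48, adjusted p = 0.00309). In NG it stood at 3.84, 3.3 and 3.22 and in si-FGF9 at 2.26, 1.28 and 3 TPM. Every HG+OE-FGF9 library was above the 9 others, but replicate 3 was far under the other two. ZNF583, a KRAB protein with 12 fingers, stood at 0.5, 0.45 and 0.24 TPM in HG and at 21.1, 21.4 and 2.07 in HG+OE-FGF9 (3.05, SE 0.57, adjusted p = 0.008), with the same order of libraries. ZNF724 went from 0.09, 0.14 and 0.31 TPM to 5.29, 8.52 and 1.64 (2.20, SE 0.39, adjusted p = 0.0062), and 52.1% of its windows recur in other genes, so that its level is uncertain. ZNF682 went from 2.57, 1.34 and 2.79 TPM to 9.54, 12.3 and 4.83 (1.57, SE 0.36, adjusted p = 0.0203). For both of these HG+OE-FGF9 replicate 3 was again the lowest, and there it lay within the range of the NG libraries.

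ZNF527 rose from 1.21, 0.84 and 0.82 TPM to 3.74, 4.22 and 2.46 (1.18, SE 0.19, adjusted p = 0.00388) and ZNF296, a GC-rich member without a KRAB box, from 1.17, 1.96 and 1.13 TPM to 4.2, 5.25 and 2.64 (1.04, SE 0.22, adjusted p = 0.0134). Another 3 members were called higher and are named after their values were seen. ZNF431 went from 4.09, 2.16 and 6.87 TPM to 18.3, 18.1 and 6.35, where replicate 3 overlaps HG (1.47, SE 0.39, adjusted p = 0.0343). ZNF665 went from 1.07, 0.95 and 1.34 TPM to 5.18, 4.53 and 2.11 (1.16, SE 0.27, adjusted p = 0.0191), and ZNF345 from 2.11, 1.61 and 2.08 TPM to 5.45, 6.21 and 3.42 (1.01, SE 0.27, adjusted p = 0.0392). In all 9 members HG+OE-FGF9 replicate 3 was the lowest of its group, while its FGF9 level of 3.82 TPM lay between those of the other replicates. It also had the lowest trend with GC content of the group, 0.27 against 0.44 and 0.43, and what part this had was not tested. Without replicate 3 the log2 fold change was 3.82 for ZNF347 and 4.0 for ZNF583, and without replicate 2 it was 2.67 and 2.56. Without replicate 3 of HG+OE-FGF9 22 members were called, 13 higher (6.53%) and 9 lower (4.52%), beside 3.26% and 7.12% of all genes. Without replicate 1 there were 6, 5 higher (2.53%) and 1 lower (0.505%), beside 1.66% and 1.47% of all genes. The call of ZNF296 was lost without HG replicate 1 or 3 or HG+OE-FGF9 replicate 1 or 2, and after the GC correction, at 0.99.

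The 9 members that rose did not stand side by side, apart from ZNF347 and ZNF665, which are next to each other on the minus strand (chr19:53124072-53159075 and chr19:53159213-53193386). Of their nearest members on either side, 16 were not called higher, and the 14 of these that were tested had log2 fold changes from -1.03 to 0.69. ZNF415, which overlaps ZNF347 on the same strand, had a mean of 4.02 ± 1.51 TPM (SD, n = 3) in HG and 2.11 ± 1.22 TPM in HG+OE-FGF9. The span of ZNF345 overlaps that of ZNF829 by 24906 bases on the opposite strand, and reads from any exon bases they share may not be told apart. ZNF829 had a mean of 0.723 ± 0.124 TPM in HG and 1.87 ± 0.879 TPM in HG+OE-FGF9, and was not called (0.69). ZNF790, the only member called lower, overlaps ZNF345 by 427 bases on the opposite strand. It stood at 4.94, 3.27 and 2.22 TPM in HG and at 1.06, 1.09 and 1.22 in HG+OE-FGF9 (-1.03, SE 0.23, adjusted p = 0.0159), and its call was lost without HG replicate 1 and after the GC correction (-0.71).

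**Figure D5:**
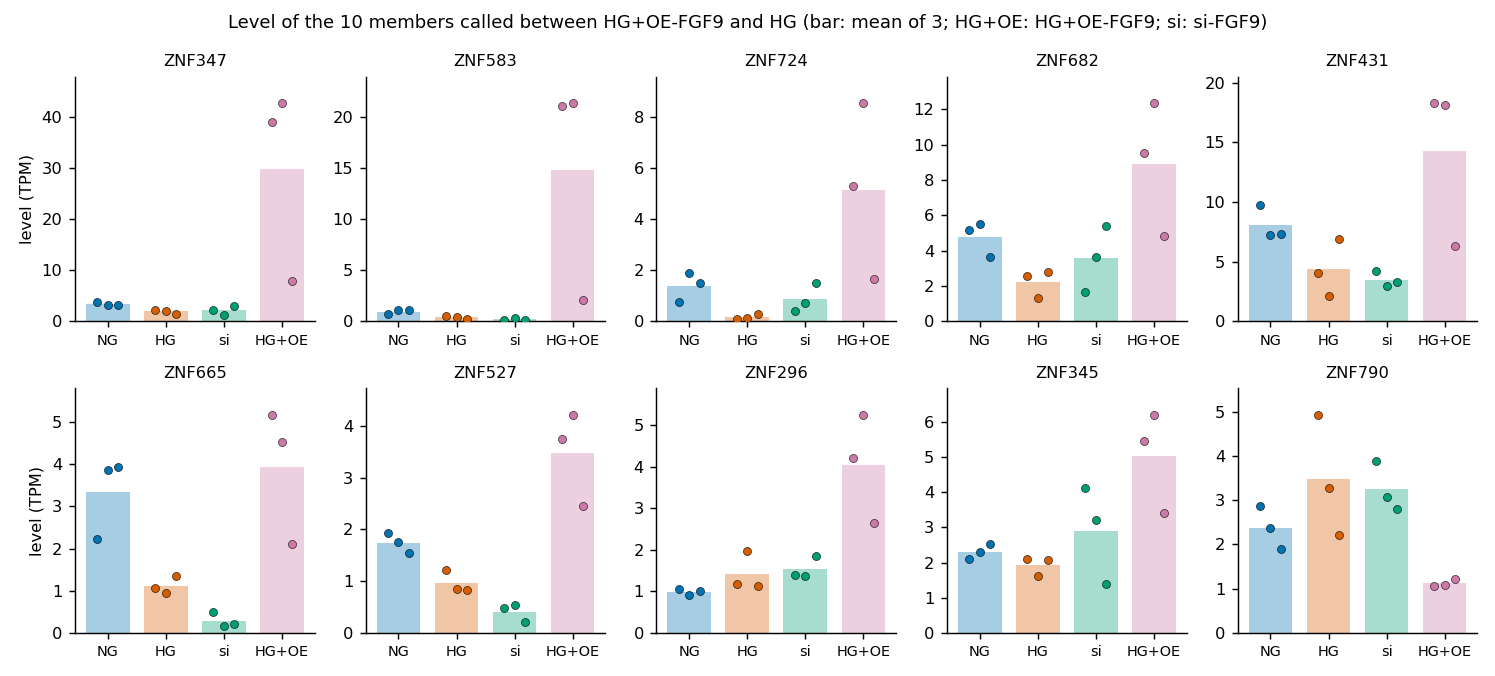
TPM of the 10 members called between HG+OE-FGF9 and HG in each library of the 4 groups (points) with the group means (bars); each panel has its own axis from 0. In the 9 members that rose, replicate 3, the rightmost HG+OE-FGF9 point, is the lowest of its group, as in ZNF583, where it stands at 2.07 TPM against 21.1 and 21.4.

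The members that had fallen most in HG stayed low in HG+OE-FGF9. ZNF146 stood at 6.53, 7.03 and 15.3 TPM, a log2 fold change of -0.89 (SE 0.35, adjusted p = 0.129) against HG, and ZNF561 at 2.14, 1.52 and 2.3 TPM (-0.06, SE 0.18, adjusted p = 0.853). ZNF823 stood at 1.29, 1.37 and 3.6 TPM (-0.55, SE 0.37, adjusted p = 0.339) and ZNF841 at 3.97, 2.36 and 3.91 TPM (0.34, SE 0.29, adjusted p = 0.457). All of these overlapped the HG libraries. For ZNF146 the value became a call, at -1.27 without HG replicate 2 and at -1.24 without HG+OE-FGF9 replicate 3. ZNF428 stood at 66.3, 64.7 and 50.7 TPM (0.28, SE 0.20, adjusted p = 0.356) and ZNF787 at 40.6, 42.2 and 37.3 TPM (0.40, SE 0.18, adjusted p = 0.171), above every NG library.

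The corepressors through which KRAB proteins act were listed with the heterochromatin genes, 23 genes in all and all tested. In HG 8 were called lower and none higher, in si-FGF9 15 lower and none higher, and in HG+OE-FGF9 versus HG 1 lower and none higher, with medians of -0.45, -1.27 and -0.44. The shares of all genes called lower, given above, were 22.7%, 42.2% and 2.67%. After the GC correction there were 0, 5 and 1 lower and 1, 1 and 0 higher, beside 3.06%, 12% and 2.18% of all genes lower and 3.78%, 12.3% and 3.03% higher. TRIM28, the partner of the KRAB box, had means of 208 ± 26.5 TPM (SD, n = 3) for NG, 312 ± 143 for HG, 221 ± 51.1 for si-FGF9 and 298 ± 10.3 for HG+OE-FGF9 and was not called in any comparison. SETDB1, the methyltransferase, had means of 15.5 ± 0.956 TPM for NG, 11.7 ± 1.35 for HG and 7.32 ± 1.36 for si-FGF9, and was called lower for si-FGF9 at a log2 fold change of -1.0, a call lost after the GC correction, at -0.40. ATF7IP, which stabilises SETDB1, went from 12.2 ± 1.90 TPM for NG to 3.64 ± 2.95 for HG and 1.86 ± 0.915 for si-FGF9, called lower in both, and both calls were lost after the GC correction, at -0.65 and -0.69. TASOR, the core of the HUSH silencing complex, went from 21.1 ± 2.04 TPM for NG to 8.38 ± 2.46 for HG and 1.72 ± 0.386 for si-FGF9, and was the gene called lower for HG+OE-FGF9 versus HG, from 8.38 to 2.59 ± 1.68 TPM; after the GC correction its values were -0.15, -1.38 and -1.10 in the 3 comparisons. Of the HP1 genes, CBX1 and CBX3 were called lower in si-FGF9, at log2 fold changes of -2.07 and -1.05, and after the GC correction these were -1.27 and 0.55. CBX5 was not called in any comparison before the correction, and after it its log2 fold changes against NG were 1.16 in HG and 1.1 in si-FGF9.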

How the data were processed

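RNA-seq of 12 HK2 libraries in 4 groups of 3 was analysed. The authors deposited TPM per Ensembl gene for each library; the unit was read from the values, since the columns have nearly the same sum and no file header names it. The aligner, counting tool, gene annotation and strand setting of these values are not given in the sources used here: the submitters' processing notes list Bowtie 0.12.2 and the mouse build mm8, which go against human identifiers. How deeply each library was sequenced is therefore unknown, and no counting interval could be given. The 12 single-library files equal their columns in the series table, and 0 value columns belonged to no sample.

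Identifiers were matched to GENCODE release 29 (58279 of 62703). GC content was taken from the longest transcript and shared windows of 100 bases from all transcripts. Genes with at least 1 TPM in 3 libraries were tested (14639) on log2(TPM + 1) with limma 3.58.1 in R 4.3.3, 12 libraries in 1 fit, with a trended variance; a gene was called at a log2 fold change of 1 or more in size and an unadjusted p under 0.01, and adjusted p-values are Benjamini-Hochberg values over all genes tested. An exact permutation test of 3 against 3 cannot go below 0.1 and was not used. Tables were made with Python 3.11.15, pandas 2.3.3 and SciPy 1.17.1. The fit was tested on simulated data with known fold changes. For the GC correction, each gene's deviation from its own mean over the libraries was taken. A natural spline of GC content (5 degrees of freedom) was fitted to these deviations in each library and removed.

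The members, gene lists and tests were chosen with earlier results of these data known. Members were named by rule: the 10 with the highest mean TPM; per comparison the 5 largest and 5 smallest log2 fold changes among called members with an adjusted p under 0.05, a mean of at least 1 TPM and no overlap between groups; 11 with a known role; and up to 5 called against the main direction. Members named outside it are marked in the text. The lists were KRAB corepressor genes and markers of epithelial, proximal tubule, immune, endothelial, fibroblast, podocyte and distal tubule cells. One marker is not reported here. Alternatives were 3 scalings, another pseudocount, 2 filters, an adjusted p, the libraries of a comparison alone, a replicate block, each library left out and, chosen after seeing the data, members with shared windows left out.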

Additional observations from a re-analysis of the deposited data

How the results depend on the processing

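The members' medians in both comparisons with NG stayed negative under every scaling, filter and pseudocount tried, but their size and the number of calls did not hold, and after the GC correction slightly more members were called higher than lower in si-FGF9 (15 and 14). Values are given in the order high glucose, siRNA, overexpression. The GC correction gave 8 (4.02%), 29 (14.6%) and 13 (6.53%) called members, beside 6.84%, 24.3% and 5.21% of all genes. The medians were then -0.12, -0.10 and 0.12, beside -0.02, -0.07 and -0.05 over all genes. Median-of-ratios scaling gave 35 (17.6%) and 84 (42.2%) called in the comparisons with NG, beside 15.7% and 36.7% of all genes, with medians of -0.55 and -0.73. Quantile normalization gave 26 (13.1%) and 61 (30.7%), beside 15.3% and 33.3% of all genes, with medians of -0.45 and -0.57. A pseudocount of 0.1 gave medians of -1.38 and -2.24 there and 17 called members (8.54%) in HG+OE-FGF9 versus HG, beside 8.01% of all genes. Requiring 1 TPM in all 12 libraries left 71 members, with 23 (32.4%), 33 (46.5%) and 5 (7.04%) called, beside 23.9%, 47.6% and 4.32% of all genes. Their medians were -0.61 and -0.65 against NG, beside -0.34 and -0.74 over all genes. In si-FGF9 42.3% of these members and 41.6% of all genes were then lower, so that the members' excess over all genes in that comparison was no longer seen. With no filter the si-FGF9 median was -1.17. The sign of the HG+OE-FGF9 median differed between scalings, and the cause was not tested. After the GC correction 36 of the 137 members called in si-FGF9 versus NG had the opposite sign, 4 of them among those named by rule, with and without the replicate block: ZNF226 (0.40), ZNF420 (0.32), ZNF568 (0.44) and ZNF93 (0.40). With 1 library left out at a time there were 66 to 104, 117 to 139 and 6 to 22 called, with medians of -1.02 to -0.84, -1.36 to -1.26 and -0.16 to -0.02. At the lowest and highest counts in HG, 33.2% and 52.3% of members were called, beside 15.4% and 32.6% of all genes. In si-FGF9 these were 65% and 69.8%, beside 46.2% and 47.7% or 48.3% of all genes. In HG+OE-FGF9 they were 3.03% and 11.1%, beside 3.12% and 10.4%. Members whose windows are shared by more than 10%, left out after seeing the data, left 81 (46.3%), 126 (72%) and 9 (5.14%) called. The shares of all genes were then 24.4%, 47.6% and 5.61%. Samples with the same number did not deviate together in every pair (correlations of -0.16 to 0.25). Whether they share more than a number is not given in the labels. The replicate block gave 88 (44.2%), 137 (68.8%) and 10 (5.03%) called members, beside 24%, 47.3% and 5.42% of all genes. With the GC correction it gave 9 (4.52%), 28 (14.1%) and 13 (6.53%), beside 6.82%, 24.1% and 5.12%, with medians of -0.12, -0.10 and 0.12. Depth is unknown, and members listed at or near 0 TPM may be expressed below what these libraries show.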

Other observations

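ZNF28, a KRAB gene named after its values were seen, differed widely between the libraries of a group: it stood at 46, 29.6 and 11 TPM in HG+OE-FGF9, at 6.51, 16.1 and 11.3 TPM in HG, at 12.5, 12.1 and 0.49 TPM in si-FGF9 and at 3.1, 8.71 and 6.23 TPM in NG, and was not called in any comparison.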
